A study of Mus musculus with 4 samples.

Results

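The genes described here encode the proteins that start and lengthen protein chains on cytosolic ribosomes (initiation and elongation factors) and the aminoacyl-tRNA synthetases, which load each transfer RNA with its amino acid. They were chosen by symbol, on chromosomes 1 to 19 and without pseudogene names, and 99 of the 49671 genes in each of the 2 deposited tables matched. All 99 are annotated as protein coding in GENCODE M21. The X-linked genes Eif2s3x and Eif1ax lie outside this choice. RNA was sequenced from 4 female F1 mus x cast hybrids, each with a C57BL/6 mother heterozygous for an Xist deletion and a Mus musculus castaneus father. Their splenic CD3+ T cells were enriched on columns and stimulated for 48 hours on plates coated with anti-CD3 (1 µg/ml), with anti-CD28 (10 µg/ml) in solution. The compound IMD-0354 (2.5 µM), which blocks the kinase IKKβ upstream of NF-κB, was present in all cultures. All 4 samples are labelled as biological replicates of this 1 group, so stimulation and inhibitor have no counterpart here and their effects were not tested. The sources used do not state the age of the mice.

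A resting T cell makes little protein, and on activation it enlarges and raises translation before it divides. Initiation begins when eIF2 brings the initiator tRNA to the small ribosomal subunit, on which eIF3 is the scaffold, and when eIF4E, eIF4G and the helicase eIF4A attach the capped mRNA. Elongation then runs on eEF1A, which delivers charged tRNAs, its exchange complex eEF1B, and eEF2, which moves the ribosome along. Uncharged tRNA activates the kinase GCN2, phosphorylated eIF2 slows initiation and favours translation of the transcription factor ATF4, and ATF4 in turn binds near many cytosolic synthetase genes.

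Allelic reads, those that could be given to the C57BL/6 or the Castaneus allele, numbered 30539711 to 34992012 per replicate over all genes. Reads were clumped, most in replicate 2: among autosomal genes with 20 to 39 allelic reads, 84.2% showed 1 allele only there, against 13.5% to 45.2% in the others. In log2(RPKM + 1), any 2 replicates had an r of 0.996 to 0.997 over the members and of 0.983 to 0.992 over autosomal coding genes, where the points are genes and not independent. All 8 T cell markers were at 1 RPKM or more, with summed levels of 575 to 661 RPKM per replicate. Summed B cell markers reached 31.1 to 42.8 RPKM (3 of 4 at 1 RPKM or more, mean of Ms4a1 0.794), myeloid markers 20.6 to 81.7 (2 of 4, mostly Lyz2, highest in replicate 2), erythroid markers 0.824 to 4.87 (2 of 3) and NK markers 0.0521 to 0.231 (0 of 2). The part of those other cells in the levels below was not tested. RPKM scales reads by gene length and library size, so levels of different genes can be set side by side. In whole cell samples, fewer cells of a type and less RNA per cell cannot be told apart.

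The members together made up 4.94% to 5.28% of the summed RPKM of autosomal coding genes. Their median level was 14.8 ± 0.547 RPKM (SD, n = 4), against 7.88 ± 0.272 for all 9074 autosomal coding genes with at least 1 RPKM. Of the 99, 95 had at least 1 RPKM, 61 at least 10 and 10 at least 100, and 2 were listed at 0 in every replicate, the elongation factor gene Eef1a2 and the initiation factor gene Eif4e1b. Levels differed far more between genes than between mice. The coefficient of variation over the replicates was under 10% in 72 of the 95 genes, with a median of 7.39%, against 10.1% for all expressed coding genes. The members also had the higher median level, and this comparison was not matched for level.

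**Figure D1:**
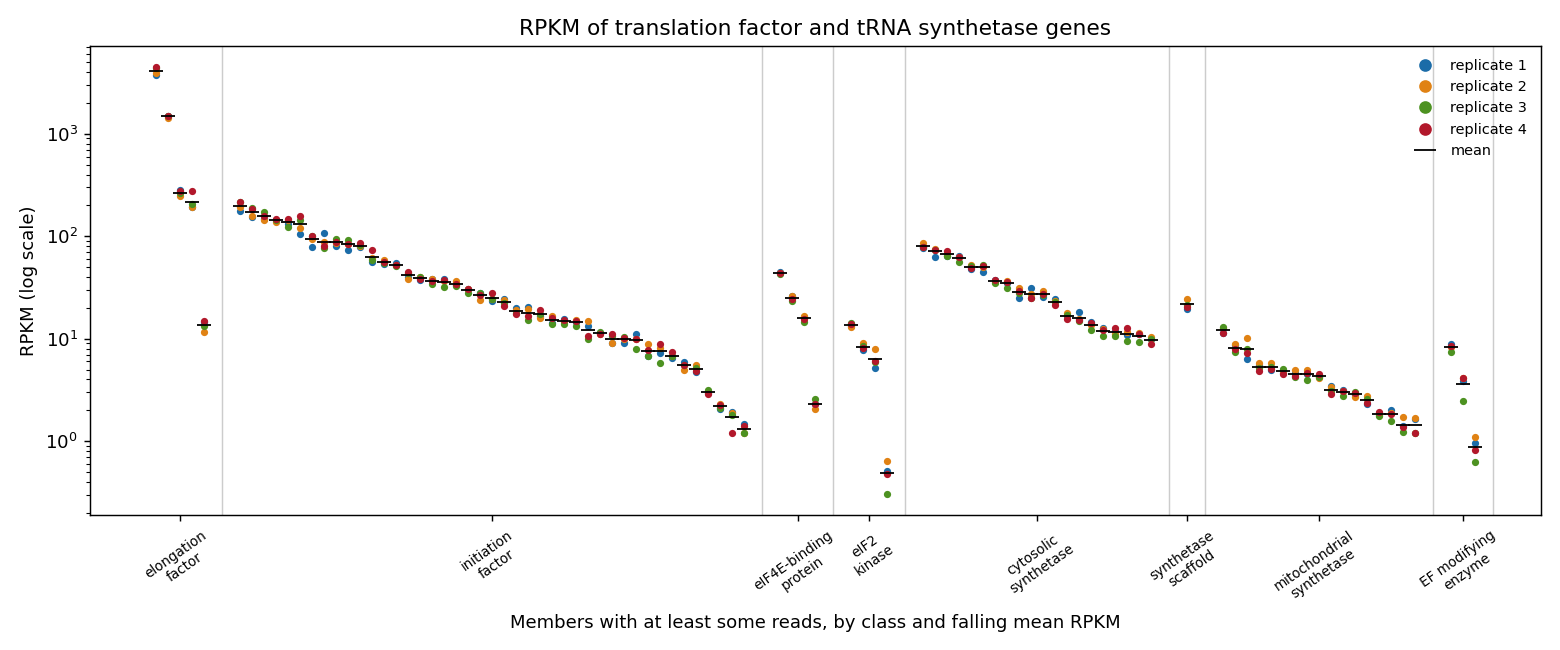
RPKM on a log axis of each member with reads, by class and in order of falling mean. Points are the 4 replicates and bars the mean. Elongation factor genes reach 4121 RPKM, and mitochondrial synthetases lie between 1.44 and 12.1 RPKM.

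Elongation factors were the most abundant class, and 2 genes held most of its RNA. Eef1a1, which encodes the factor that carries charged tRNA to the ribosome, had 3762, 3882, 4380.3 and 4459.7 RPKM in replicates 1 to 4, the highest mean level of any coding gene on the autosomes. Eef2, the translocase, had 1503, 1432, 1488 and 1502 RPKM. These 2 genes do not overlap each other or any other member in any replicate. Eef1a1 alone made up 45.7% ± 1.57 of the members' summed RPKM and Eef2 16.5% ± 0.794 (SD, n = 4), and the ratio of Eef1a1 to Eef2 was 2.78 ± 0.219. Near-identical processed pseudogenes of Eef1a1 exist, and the sources used do not state how reads that match several places were counted.

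The eEF1B complex, which recharges eEF1A with GTP, was represented by 3 subunit genes at unequal levels. Eef1g, the gamma subunit, had 285, 245, 264 and 275 RPKM, and Eef1b2, a nucleotide exchange subunit, had 193, 194, 207 and 276. The ranges of these 2 genes overlap through replicate 4, where Eef1b2 stood above its other values. Eef1d, a second exchange subunit, lay lower in every replicate, with 14.5, 11.5, 13.3 and 15.0 RPKM. The paralogue Eef1a2, which replaces Eef1a1 in muscle and neurons, had 0 allelic reads as well as 0 RPKM.

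The genes of enzymes that modify elongation factors lay below every elongation factor gene with reads. The highest of them, Eef2kmt, had a mean of 8.27 RPKM, near the median of 7.88 for expressed coding genes. Eef2k, the kinase that blocks eEF2, had 0.961, 1.10, 0.621 and 0.826 RPKM. Eef2kmt, a methyltransferase of eEF2, had 8.94, 8.33, 7.41 and 8.40 RPKM, and Eef1akmt1, a methyltransferase of eEF1A, 3.85, 4.15, 2.46 and 4.15. Replicate 3 was the lowest of the 4 for all 3 genes, and it was the lowest for 39 of the 95 members with at least 1 RPKM. The same count over all coding genes was not made, so this may not be particular to the members.

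Among the 44 initiation factor genes the median level was 23.7 ± 0.252 RPKM (SD, n = 4). The highest were Eif1, which guards start codon choice, with 175, 192, 214 and 215 RPKM, Eif3h with 154, 158, 188 and 183, and Eif3e with 148, 143, 173 and 158. Eif3h overlaps both other genes, while the lowest Eif1 value lies above the highest of Eif3e, and each was lower in replicates 1 and 2 than in replicates 3 and 4. At the other end stood Eif4e1b, listed at 0, and Eif3j2, with 1.46, 1.21, 1.20 and 1.39 RPKM and 0 allelic reads. Eif3j2 is a near-identical copy of Eif3j1, which had 6.84 ± 0.363 RPKM, so reads of these 2 genes may have been split between them.

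The eIF3 complex scaffolds the preinitiation complex, and its genes spanned more than 100 RPKM. Eif3h, Eif3e, Eif3c and Eif3f formed a top group at 171 ± 17.5, 156 ± 13.4, 137 ± 10.8 and 132 ± 23.9 RPKM (SD, n = 4), whose ranges overlap from each gene to the next. Eif3d, which can bind the cap itself, followed at 81.2 ± 3.10 and Eif3a, the largest subunit, at 62.3 ± 7.58, apart from each other and from the top group in every replicate. Eif3m, Eif3l, Eif3b, Eif3g and Eif3k lay together with means between 34.2 and 41.5 RPKM, each overlapping the next, and Eif3i had 18.6 ± 1.17. Eif3f varied most, with 105, 120.2, 145 and 158 RPKM. Of 13 neighbouring pairs in the order of eIF3 levels, 6 had ranges that did not overlap.

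**Figure D2:**
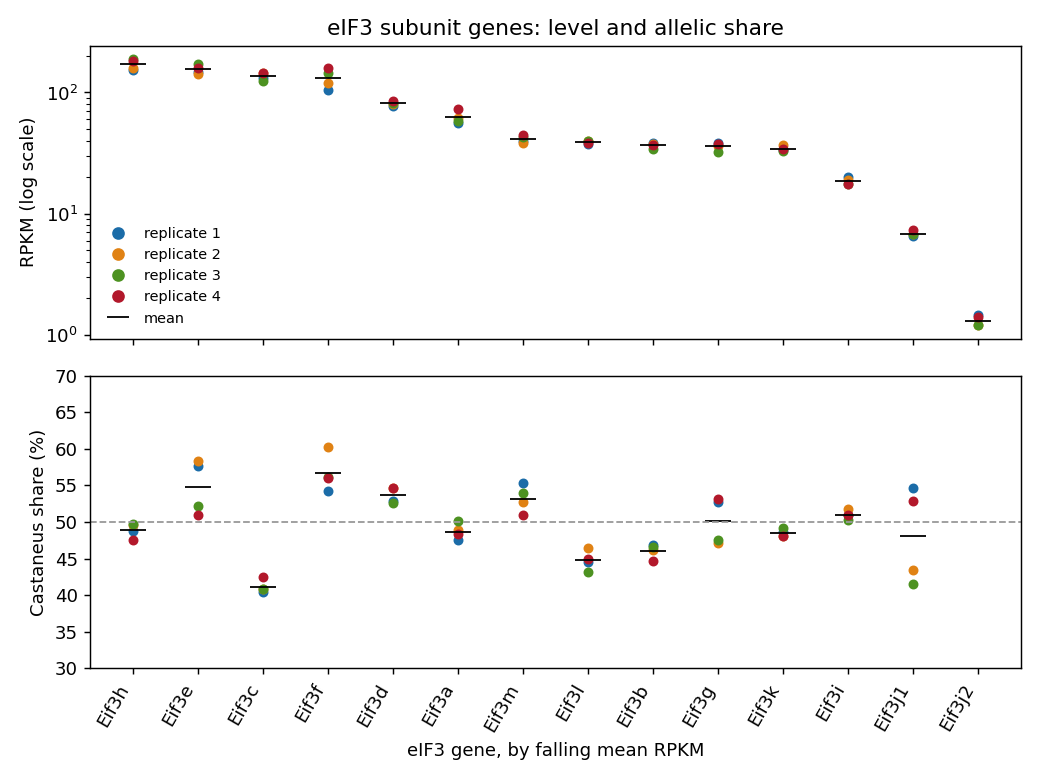
The 14 eIF3 genes in order of falling mean RPKM, with RPKM on a log axis above and the Castaneus share of allelic reads below, each point 1 replicate and each bar the mean. Levels fall in steps from 171 to 1.31 RPKM, while the shares of Eif3c (41.1%) and Eif3f (56.7%) lie on opposite sides of the dashed line at 50%. Eif3j2 has no allelic reads and no share.

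The cap-binding machinery was led by its helicase and scaffold genes rather than by the cap-binding protein. Eif4a2 had 80.4, 86.2, 93.5 and 88.7 RPKM, Eif4a1 54.9, 52.5, 50.9 and 51.9, and Eif4a3, which belongs to the exon junction complex, 28.2, 24.1, 27.9 and 26.5. The order of these 3 helicase genes was the same in all 4 replicates, with no overlap, and the ratio of Eif4a1 to Eif4a2 was 0.605 ± 0.0585 (SD, n = 4). The pseudogene Eif4a-ps4, outside the choice by its name, had 2.16 RPKM.

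The eIF4G scaffold and eIF4E genes were ordered as follows. Eif4g2, which lacks the eIF4E-binding part, had 74.1, 83.6, 91.9 and 83.9 RPKM, Eif4g1, the main scaffold, 53.3, 59.0, 54.8 and 56.3, and Eif4g3 14.1, 16.7, 13.8 and 16.1, again without overlap. Eif4e, which binds the cap, had 11.3, 11.2, 11.6 and 11.2 RPKM, the second lowest coefficient of variation (1.79%) among members with at least 5 RPKM. Eif4e2, a competitor for the cap that represses translation, had 6.82, 8.94, 6.73 and 7.68 RPKM, and Eif4e3 1.92, 1.90, 1.80 and 1.20. Eif4b and Eif4h, which stimulate the helicase, had 144 ± 3.65 and 29.9 ± 1.28 RPKM.

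The genes of eIF4E-binding proteins were as abundant as Eif4e or more so, apart from 1. Products of the Eif4ebp genes hold eIF4E away from eIF4G until mTOR phosphorylates them. Eif4ebp2 had 44.4, 43.3, 43.1 and 43.7 RPKM, the lowest coefficient of variation (1.31%) of the members with at least 5 RPKM. Eif4ebp1 had 26.3, 25.9, 23.4 and 24.4 RPKM, and the transporter gene Eif4enif1, whose product moves eIF4E into the nucleus, 16.3, 16.8, 14.6 and 15.7. All 3 lay above Eif4e in every replicate. Eif4ebp3 had 2.30, 2.07, 2.57 and 2.33 RPKM, and 67.3% of its exon length is shared with the annotated gene AC115631.1 on the same strand, so its reads are uncertain.

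The genes of eIF2, which carries the initiator tRNA, lay at middle levels for initiation factors: Eif2s2 at 25.0 ± 1.95 RPKM and Eif2s1, whose product is the phosphorylated subunit, at 17.3 ± 1.33 (SD, n = 4). The 5 genes of eIF2B, the exchange factor that phosphorylated eIF2 inhibits, ranged from 2.18 ± 0.133 RPKM for Eif2b3 to 14.8 ± 0.678 for Eif2b2, with Eif2b5, the catalytic subunit, at 14.4 ± 0.777. Of the 4 kinases that phosphorylate eIF2, Eif2ak3 (PERK, which senses unfolded proteins) had 13.2, 13, 14.3 and 14 RPKM. Eif2ak1 (HRI, a sensor of haem and mitochondrial stress) had 7.69, 9.12, 8.42 and 8.11. Eif2ak4 (GCN2) had 5.21, 7.95, 5.91 and 6.02 RPKM, and Eif2ak2 (PKR, which senses double-stranded RNA) 0.513, 0.646, 0.304 and 0.477. Eif2ak3 lay above and Eif2ak2 below the other kinases in each of the 4 replicates. Atf4, the transcription factor gene downstream of these kinases and no member, had 282, 279, 299 and 271 RPKM.

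Eif5a, whose product carries hypusine and helps ribosomes past stalling sequences, had 108, 87.7, 77.0 and 79.8 RPKM. Its paralogue Eif5a2 had 2.93, 3.01, 3.17 and 2.90 RPKM, a ratio of 29.5 ± 5.34 (SD, n = 4). Eif5, which triggers GTP hydrolysis by eIF2, had 93.8 ± 10.7 RPKM, and Eif6, which keeps large ribosomal subunits apart from small ones, 22.8 ± 1.72. Exons of Eif5 contain Snora28, listed at 57.4 RPKM.

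Cytosolic synthetases formed a compact class with a median of 26.4 ± 1.42 RPKM over 20 genes (SD, n = 4), from 9.82 to 80.3. The highest were Gars (glycyl-tRNA synthetase) with 77.5, 86.2, 78.8 and 78.4 RPKM, Iars (isoleucyl) with 62.8, 74.5, 73.9 and 74.0, and Sars (seryl) with 64.2, 66.4, 64.0 and 72.0. Gars lay above the other 19 in every replicate, while Iars and Sars overlapped. The lowest were Dars (aspartyl) with 11.2, 11.3, 9.30 and 11 RPKM and Farsa (the alpha chain of the phenylalanyl enzyme) with 9.91, 10.4, 10.0 and 8.95, which overlapped. Farsb, the beta chain of the same enzyme, had 16.8 ± 1.06 RPKM. Of the 19 neighbouring pairs in this order 8 did not overlap, and from Rars down to Farsa each gene overlapped the next. Eef1e1, which encodes a scaffold protein of the multisynthetase complex, had 19.6, 24.6, 21.4 and 20.5 RPKM.

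The core letters of an element that ATF4 is known to bind were looked for near the members' starts. RefSeq promoter windows (GRCm38.p6, from 250 bases before to 50 bases after a start) were found for 74 of the 99 members. The core TGATGNAA was searched on both strands, N standing for any base. It occurred in 5 of 13 cytosolic synthetases with a window (38.5%), in 0 of 14 mitochondrial synthetases and in 0 of 34 initiation factors, against 4.51% of 27025 RefSeq genes. The stretches below, 1 for each gene, are shown because Aars, Gars, Iars, Tars and Yars are the 5 cytosolic genes with a match. Capitals mark the element as read on the gene's own strand, and the reverse complement appears where it lies on the opposite strand.
Aars, chr8:111033840-111033869, + strand, first capital at base 10 from the start: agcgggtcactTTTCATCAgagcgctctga
Gars, chr6:55037960-55037989, + strand, first capital 30 bases before the start: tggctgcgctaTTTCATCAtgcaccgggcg
Iars, chr13:49682126-49682155, + strand, first capital at base 8 from the start: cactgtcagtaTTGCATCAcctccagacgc
Tars, chr15:11399655-11399684, - strand, first capital 15 bases before the start: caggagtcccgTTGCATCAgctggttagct
Yars, chr4:129189895-129189924, + strand, first capital at base 4 from the start: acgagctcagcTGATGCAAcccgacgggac

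In Iars, Tars and Yars the whole element shown lies within 15 bases of the annotated start. In Aars it begins at base 10 from the start, and in Gars 30 bases before it. Among the members outside the synthetases, Eef2k alone had a match, in 1 of its windows. The 5 genes had levels of 80.3 RPKM (Gars), 71.3 (Iars), 49.7 (Aars), 36.3 (Tars) and 22.9 (Yars). The E-box CACGTG, which MYC and other factors bind and which reads the same on both strands, occurred in 4 of 13 cytosolic synthetases (30.8%), 10 of 34 initiation factors (29.4%) and 1 of 14 mitochondrial synthetases (7.14%), against 8.09% of all RefSeq genes. A match is a description of letters, and binding was not measured here.

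Mitochondrial synthetases, which charge tRNAs inside the organelle, were the lowest of the large classes, with a median of 4.16 ± 0.134 RPKM over 17 genes (SD, n = 4). Aars2 (alanyl) had 11.4, 12.8, 12.9 and 11.4 RPKM, Tars2 (threonyl) 8.59, 8.93, 7.43 and 7.85, and Fars2 (phenylalanyl) 6.32, 10.1, 7.94 and 7.21. Aars2 lay above the other 16 in all replicates. Fars2 had the highest coefficient of variation, 20.5%, of all members with at least 5 RPKM. The eIF1A-domain gene Eif1ad followed with 19.4% (13.4, 15.0, 9.92 and 10.6 RPKM). Both were highest in replicate 2, as were 32.6% of members and 42.4% of coding genes with at least 1 RPKM. Exons of Eif1ad overlap Banf1 (65.9 RPKM) on the opposite strand over 15.3% of their length, and those of Fars2 overlap Nrn1 (3.71 RPKM) over 8.72%. Whether counting used strand is unknown, so reads of such partners cannot be told apart. Lars2 (leucyl), with 1.42, 1.74, 1.22 and 1.36 RPKM, and Nars2 (asparaginyl), with 2.01, 1.90, 1.56 and 1.85, were among the lowest, and their ranges overlapped.

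A cytosolic and a mitochondrial gene for the same amino acid were compared in 14 pairs, and the cytosolic gene was higher in 4 of 4 replicates in all 14. The median ratio over pairs was 5.34. It was largest for asparagine, where Nars had 61.4 ± 3.61 RPKM and Nars2 1.83 ± 0.192, a ratio of 33.7 ± 1.78 (SD, n = 4), and for leucine with 24.4 ± 2.50. It was smallest for phenylalanine, where Farsa was 1.27 ± 0.223 times Fars2, and for histidine with 2.46 ± 0.329. Gars and Kars, whose genes serve both compartments, have no partner in the list, and stood at 80.3 ± 4.00 and 12 ± 0.893 RPKM. Genes of other mitochondrial translation factors on a list of 13, Tufm and Gfm2 among them, had a median of 2.59 RPKM.

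**Figure D3:**
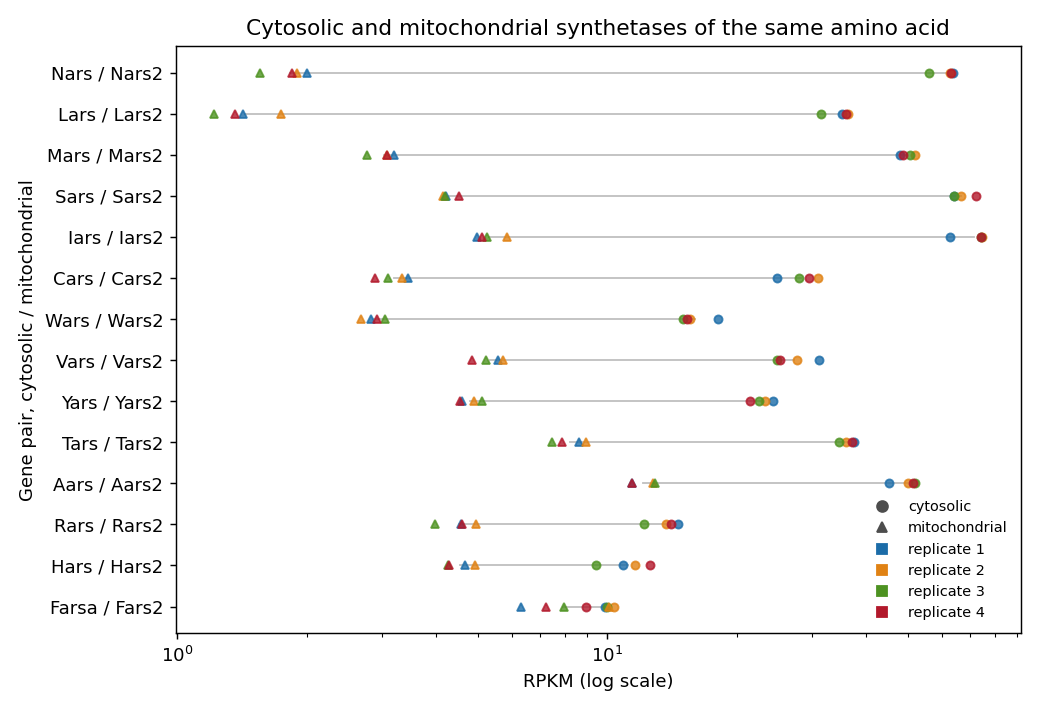
RPKM on a log axis of cytosolic (circles) and mitochondrial (triangles) synthetase genes in 14 pairs, 1 colour per replicate, with a grey line joining the means. Every circle lies to the right of the triangle of the same replicate, from a ratio of 1.27 for Farsa and Fars2 to 33.7 for Nars and Nars2.

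By the labelled cross, each gene has a maternal C57BL/6 and a paternal Castaneus copy, and the share of reads from each was compared within animals. Of the 99 members, 93 averaged 20 or more allelic reads a replicate, and 6 had fewer. Eef1a2, Eif4e1b and Eif3j2 had 0. Vars (valyl-tRNA synthetase), at 27.2 RPKM, had a mean of 0.250 allelic reads and Eif5b, which joins the ribosomal subunits, 4.75 at 7.51 RPKM. The member just above the minimum was Eif4ebp3 with 50.5. An average of 1 RPKM or more was also required, so Eif2ak2 and Eef2k were not fitted and 91 members were tested.

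Alleles were unequal in 19 of the 91 members (20.9%), against 28.1% of all genes tested, at an FDR of 5% in edgeR's quasi-likelihood test with p-values adjusted over 10268 autosomal genes. Of these, 11 were higher from Castaneus (background 12.4% of genes) and 8 higher from C57BL/6 (background 15.6%). The median absolute log2 ratio of the alleles was 0.17 in the members and 0.26 in all genes tested. In the fit, 4 of 91 members (4.40%) exceeded 2-fold, against 12.7% of genes. Members and all genes were not matched for level or read depth, so a difference from genes of like depth was not tested. The split by direction moved with the scaling: with TMM factors 15 members were higher from Castaneus and 5 from C57BL/6, and with equal library sizes 9 and 10. Over all genes tested the split moved too, from 1278 and 1605 to 1481 and 1352 with TMM factors. With equal library sizes it was 1193 and 1758. DESeq2, which changes both scaling and test, gave 17 and 7 members, and 1930 and 1883 of all genes. Without the replicate block, 3 members were higher from Castaneus and 5 from C57BL/6, and 962 and 1138 of all genes. Leaving out replicate 1, 3 or 4 left 10, 12 or 11 called members, and leaving out replicate 2 left 19, of which 8 were higher from Castaneus and 11 from C57BL/6. The spread of the share between animals was wider at lower depth, with a median SD of 9.77 percentage points in 22 members under 1000 reads and 1.40 in 33 members with at least 5000. Calls numbered 2 of the 22 members under 1000 reads, 4 of 38 with 1000 to 5000 and 13 of the 33. The 22 include Eif2ak2 and Eef2k, which were not fitted, and the called part of all genes by depth was not counted.

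**Figure D4:**
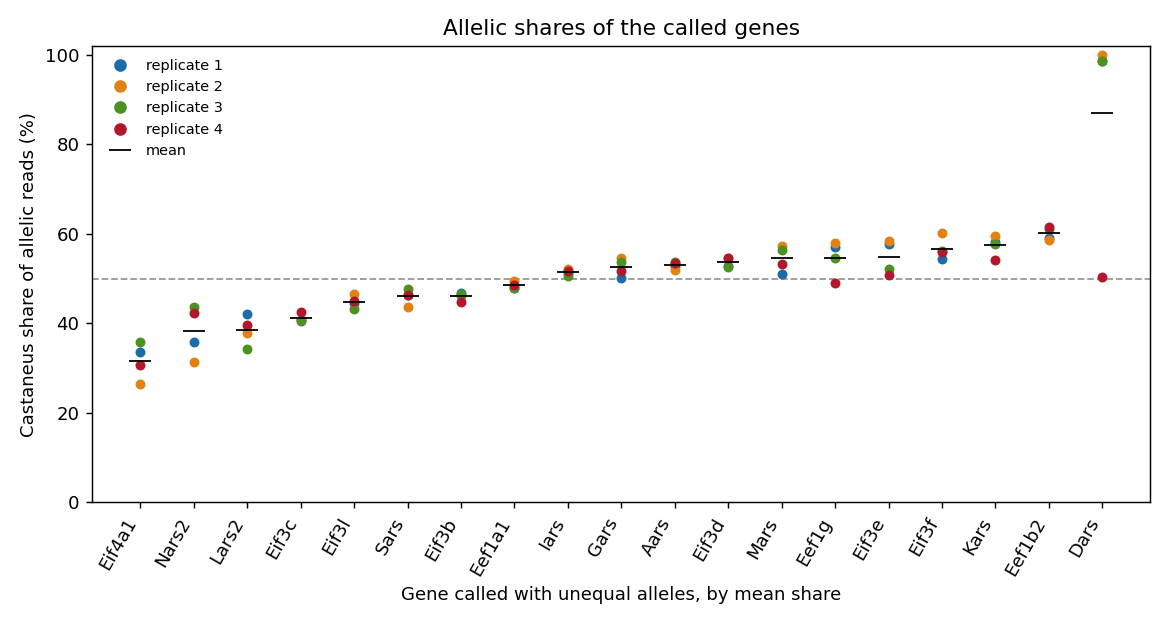
Castaneus share of allelic reads in percent for the 19 members called with unequal alleles, in order of the mean. Points are replicates, bars means, and the dashed line marks 50%. Most lie within 10 percentage points of the line, Eif4a1 is at 31.6%, and Dars stands at 98.6% or more in 3 replicates and at 50.3% in replicate 4.

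Among elongation factors, Eef1b2 had the clearest imbalance. Its Castaneus share was 59.0%, 58.7%, 61.1% and 61.6%, a log2 ratio of 0.62 with a standard error of 0.04 (adjusted p = 1.20e-06 in edgeR), and the call held under all 11 alternatives (adjusted p of 4.09e-57 to 0.00161). The gene lies at chr1:63176825-63180486 (mm10, ENSMUSG00000025967) and had 20013 to 29876 allelic reads per replicate. Eef1g had 57%, 58.0%, 54.6% and 49.0%, above 50% in 3 of 4 replicates (log2 ratio 0.29, adjusted p = 0.0136), and without replicate 1 its call was lost (adjusted p = 0.108, edgeR; 0.000711 to 0.23 over the 11 alternatives). Eef1a1 passed with a very small imbalance, 48.0%, 49.4%, 48.0% and 48.5%, a log2 ratio of -0.06 (adjusted p = 0.0333). The call of Eef1a1 was lost with TMM factors (adjusted p = 0.599), with DESeq2 (0.504), and in edgeR without replicates 1, 3 or 4 (adjusted p = 0.126, 0.156 and 0.0986), with a range of 0.00552 to 0.619 over the alternatives. Eef2, with the most allelic reads of any member, had 49.0%, 49.4%, 50.1% and 49.1% and did not pass (adjusted p = 0.615).

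Of 13 eIF3 subunits tested, 3 were higher from C57BL/6 (background 15.6%), 3 higher from Castaneus (background 12.4%) and 7 did not pass. Eif3c (chr7:126546455-126566411, ENSMUSG00000030738) had 40.5%, 40.8%, 40.8% and 42.5% from Castaneus (log2 ratio -0.49, standard error 0.04, adjusted p = 3.09e-06), and Eif3l 44.5%, 46.5%, 43.1% and 45.0% (adjusted p = 0.0066 in edgeR). On the other side Eif3f (chr7:108934417-108942951, ENSMUSG00000031029) had 54.3%, 60.2%, 56.2% and 56.0% (log2 ratio 0.41, standard error 0.06, adjusted p = 0.000243), and Eif3d 52.9%, 54.7%, 52.6% and 54.7% (adjusted p = 0.00348). All 4 lay on 1 side of 50% in every replicate, and the calls of Eif3c, Eif3l and Eif3d held under all 11 alternatives. The highest adjusted p was 0.00142 for Eif3c, but 0.0466 for Eif3l and 0.0462 for Eif3d, near the limit (edgeR). The call of Eif3f was lost without the replicate block (adjusted p = 0.147, edgeR), the highest of its alternatives, and the lowest was 6.14e-16.

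The other 2 eIF3 calls were weaker. Eif3b had 46.8%, 46.2%, 46.6% and 44.7% (adjusted p = 0.0221), and in edgeR its call was lost without replicates 1, 3 or 4 (adjusted p = 0.059, 0.0642 and 0.117) and with TMM factors (adjusted p = 0.0698), with a range of 0.00438 to 0.158 over the alternatives. Eif3e had 57.7%, 58.3%, 52.2% and 50.9% (adjusted p = 0.0407), and its call was lost without any 1 of the replicates (adjusted p = 0.177, 0.0807, 0.0633 and 0.0543), with a range of 0.00158 to 0.2. Both genes kept 4 of 4 replicates on the same side of 50%.

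Outside eIF3, 1 initiation factor was called. Eif4a1 (chr11:69666936-69672423, ENSMUSG00000059796) had 33.5%, 26.4%, 35.8% and 30.6% of 1002 to 1250 reads from Castaneus, a log2 ratio of -1.10 with a standard error of 0.15 (adjusted p = 0.000272 in edgeR, 2.01e-11 to 0.00425 over 11 alternatives). Its paralogues did not pass: Eif4a2 had 49.4% ± 2.59 and Eif4a3 51.0% ± 1.59 (SD, n = 4). A difference between the paralogues was not tested. A ratio past 2-fold that was not called was fitted for Eif4e3, with shares of 30.7%, 4.59%, 45.9% and 52.8% (adjusted p = 0.225), and for Eif4ebp3, with 10.8%, 0%, 36.1% and 53.8% (adjusted p = 0.262). In both genes the replicates range widely, with replicate 4 above 50%. For the 0 Castaneus reads of Eif4ebp3 in replicate 2, the limit of 3 counts is 4.62% of its reads, from counting error alone.

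Of 19 cytosolic synthetases tested, 6 were higher from Castaneus (background 12.4%), 1 higher from C57BL/6 (background 15.6%) and 12 did not pass. The split over all members moved with the scaling, and that of this class alone was not recounted. Apart from Dars, described next, the imbalances were small. Aars had 52.9%, 51.9%, 53.7% and 53.5% (log2 ratio 0.20, adjusted p = 0.00258), Mars (methionyl) 51.1%, 57.3%, 56.4% and 53.2% (adjusted p = 0.00936) and Kars (lysyl) 58.1%, 59.6%, 57.7% and 54.2% (adjusted p = 0.0239), all in edgeR. Gars had 50.2%, 54.5%, 53.7% and 51.8% (adjusted p = 0.0272) and Iars 51.3%, 52.1%, 50.5% and 51.7% (adjusted p = 0.0413). Sars, on the other side, had 46.4%, 43.7%, 47.6% and 46.4% (adjusted p = 0.0186). Each was on the same side of 50% in 4 of 4 replicates.

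Several of these calls were lost with 1 replicate left out or without the block. Over all genes tested, the called part also fell without replicates 1, 3 or 4, from 28.1% to 19.7%, 21.4% and 19.1%. It did not fall without replicate 2. A fit with a replicate left out has fewer animals, so whether a call rested on 1 library was not tested. In edgeR, Mars was lost without replicate 3 (adjusted p = 0.0578), Kars without replicates 1, 3 or 4 (adjusted p = 0.0827, 0.0697 and 0.0714), Gars without replicates 2, 3 or 4 (adjusted p = 0.0743, 0.121 and 0.0597), Sars without replicates 1 or 4 (adjusted p = 0.063 and 0.0626) and Iars without any 1 replicate (adjusted p = 0.0936, 0.103, 0.0672 and 0.135). Without the replicate block Aars, Kars, Gars, Iars and Sars did not pass (adjusted p = 0.0652, 0.0697, 0.156, 0.357 and 0.0865). Sars was also lost with TMM factors (adjusted p = 0.0625) and Iars with equal library sizes (adjusted p = 0.0996). Over the 11 alternatives the adjusted p ranged from 5.49e-12 to 0.0652 for Aars, 5.38e-06 to 0.0578 for Mars, 0.000211 to 0.0827 for Kars, 5.11e-05 to 0.156 for Gars, 3.29e-06 to 0.357 for Iars and 0.00637 to 0.0865 for Sars. Exons of Mars overlap Ddit3 on the opposite strand, over 1.99% of their length.

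Dars was read almost only from Castaneus in 3 animals and equally from both alleles in the fourth. Its share was 98.7%, 100%, 98.6% and 50.3% in replicates 1 to 4, from 754, 397, 486 and 571 allelic reads, of which 10, 0, 7 and 284 were from C57BL/6. For the 0 C57BL/6 reads of replicate 2, the limit of 3 counts is 0.756% of its reads, from counting error alone. The total level of Dars was nonetheless alike in the 4 mice, at 11.2, 11.3, 9.30 and 11 RPKM, and replicate 4 lay inside the range of the others. In edgeR the log2 ratio was 4.75 with a standard error of 1.14 (adjusted p = 0.00944), but its size was not stable: it was 6.68 without replicate 4, 3.62 without replicate 2, 2.69 without the block and 6.08 with DESeq2. Leaving out replicate 1 or replicate 3 ended the call (adjusted p = 0.106 and 0.0555), as did dropping the block (adjusted p = 0.0708), while leaving out replicate 4 gave 1.33e-05, and these hold the lowest and highest of the 11 alternatives.

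The genes around Dars differed between the same animals. Dars lies at chr1:128363707-128417368 on the minus strand (mm10, ENSMUSG00000026356). Within 1 Mb of its start, 8 other genes had at least 50 allelic reads and 1 RPKM, and were looked at after the shares of Dars had been seen. In all 8 the share in replicate 4 lay outside the range of replicates 1 to 3, below it in 7. The gap was small in some of them, and how often this holds over all genes was not counted. Cxcr4, the chemokine receptor gene beside Dars, had 99.9%, 100%, 99.8% and 54.1% of a mean of 7745 reads from Castaneus. Rab3gap1 had 65.2%, 64.4%, 62.3% and 49.5%, and R3hdm1 60.3%, 58.9%, 57% and 46.5%. Tmem163 departed the opposite way, with 6.52%, 6.08%, 5.25% and 63.6%. Ubxn4, with 53.0%, 50.4%, 51.1% and 49.9%, differed by little. The next member along the chromosome, Eif2d at chr1:131153181, had 53.1%, 49.0%, 51.2% and 49.6%, and the difference between animals was not tested. Whether all 4 mice carried both strains' alleles across this region was not tested either, so the shares of Dars describe reads as assigned by the authors.

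**Figure D5:**
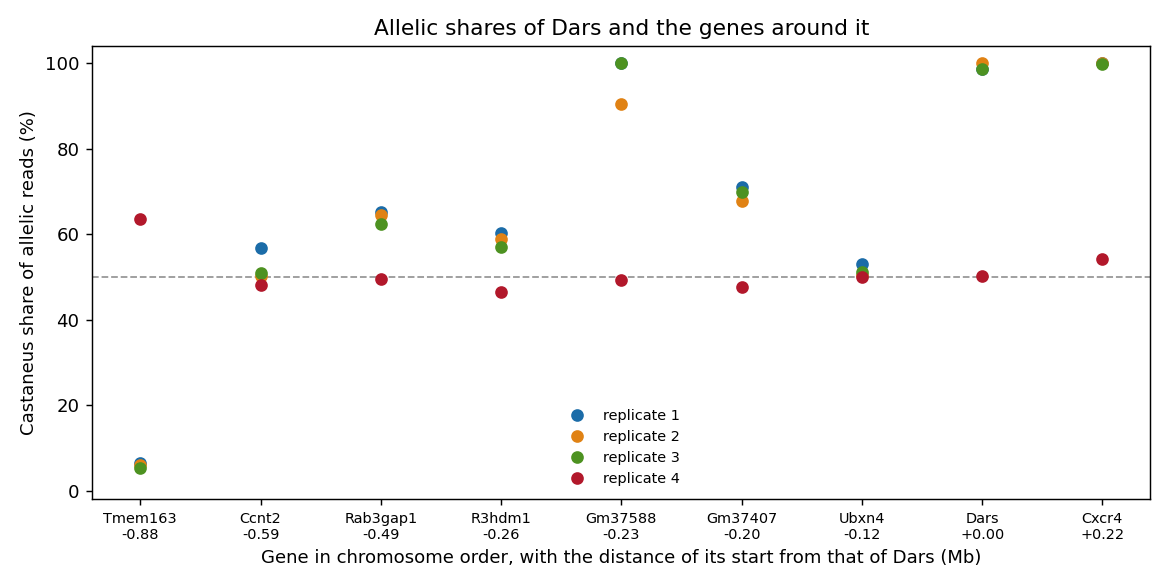
Castaneus share of allelic reads in percent for Dars and 8 neighbouring genes in chromosome order, labelled with the distance of each start from that of Dars in Mb, 1 point per replicate. Replicate 4 lies near the dashed 50% line for Dars (50.3%) and Cxcr4 (54.1%), where replicates 1 to 3 are at 98.6% or more.

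Of 16 mitochondrial synthetases tested, 2 were higher from C57BL/6, 0 higher from Castaneus and 14 did not pass, against backgrounds of 15.6% and 12.4%. The highest mean depth among the 16 was 3640.2 allelic reads, in Iars2, and the classes were not matched for depth. At an unadjusted p under 0.05 there were 6 of 16 in either direction, against 38.0% of all genes tested (edgeR). Lars2 (chr9:123366927-123462666, ENSMUSG00000035202) had 42.1%, 37.9%, 34.3% and 39.6% from Castaneus (log2 ratio -0.66, standard error 0.14, adjusted p = 0.00528), and its call held under all 11 alternatives. Nars2 (chr7:96951505-97064758, ENSMUSG00000018995) had 35.9%, 31.4%, 43.7% and 42.4% (log2 ratio -0.67, standard error 0.19, adjusted p = 0.0225), and leaving out replicate 1 or replicate 4 ended its call (adjusted p = 0.111 and 0.0582, over a range of 0.00326 to 0.111). Both were below 50% in 4 of 4 replicates, at 1013 to 1179 and 641 to 907 allelic reads per replicate. The cytosolic partners Lars, with 51.5% ± 0.964, and Nars, with 56.6% ± 13.5 from a mean of 311 reads, did not pass (SD, n = 4).

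The eIF2 kinases, the eIF4E-binding proteins, the elongation factor modifying enzymes and Eef1e1 gave 0 calls among 10 genes tested in edgeR, against 28.1% of all genes tested. Of the 10, Eif2ak4 and Eif4enif1 had an unadjusted p under 0.05, against 38.0% of all genes. Eif2ak4 had 51.2%, 55.4%, 50.2% and 55.7% from Castaneus (adjusted p = 0.12) and Eif4enif1 56.1%, 58.7%, 48.7% and 54.9% (adjusted p = 0.0574). Of 36 other translation genes from a list of release factors, regulators and mitochondrial factors, 5 were higher from Castaneus and 3 higher from C57BL/6, or 22.2%, against 28.1% of all genes tested. Gfm2, a mitochondrial recycling factor gene, had 25.5% ± 4.13 from Castaneus (adjusted p = 4.50e-06), and Tufm, the mitochondrial counterpart of Eef1a1, 66.4% ± 2.83 (adjusted p = 0.000286).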

How the data were processed

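Read counts per gene and allele were deposited by the authors without normalization, and RPKM values of both alleles together were computed by the authors, per the file headers. STAR 2.7.1a, featureCounts and mm10 are named in the submitters' processing notes. The sources used do not state allele assignment, multi-mapping, duplicate removal or strand setting. Members and lists were chosen with earlier results of these data known. Named are called members, the highest and lowest of each class, the eIF4A, eIF4E, eIF4G and eEF1A families, the most variable members and those beside the read minimum. Other members given with values, the neighbours of Dars, Atf4, Gfm2 and Tufm were chosen after their values were seen. Some results are not reported here.

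Allele counts of 10268 autosomal genes (mean of at least 20 allelic reads and 1 RPKM) were fitted with edgeR 4.0.16 (glmQLFit, glmQLFTest, R 4.3.3), allele term against a ratio of 1, two-sided, the library size of an allele being its autosomal total. The replicate was a block, since both alleles come from 1 animal. Deviations of the 2 alleles correlated with r of 0.291, 0.0866, 0.154 and 0.278 in replicates 1 to 4. The 4 libraries share no more than 103 genes with identical counts per pair. On simulated data for this comparison (10268 genes), the fit called 1.34% of genes changed 1.5-fold, 26.8% at 2-fold and 75.3% at 4-fold. It called 0 of 30124 unchanged genes. The simulation gave every gene the same added spread between alleles, clumped reads by a fixed factor per replicate and changed few genes. Some real genes varied less: Eef1b2 passed at a ratio of 1.53, with a standard error of 0.04 in log2. These rates therefore hold for the simulated settings only, not for the fit on these data. A gene that did not pass may still differ. Alternatives were TMM, equal library sizes, DESeq2 1.42.0, other minimums, no block and each replicate left out. Coordinates are from GENCODE M21 and promoters from RefSeq. P-values set the allele ratio of a gene against how much that ratio varied over these 4 animals. The estimate of that variation also draws on the other genes fitted. Clumped reads are not independent molecules, so limits from 0 counts cover counting error only. Python 3.11.15, pandas 2.3.3 and matplotlib 3.10.9 were used.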

Additional observations from a re-analysis of the deposited data

Results flagged for a closer look

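In 188 sets of 4 replicate values (95 of RPKM, 93 of Castaneus share), 14 had 1 replicate whose gap to the nearest other exceeded Dixon's critical value for 4 samples, as a share of the range, where chance gives about 1 in 20 sets. Of these 8 were RPKM values and 6 shares, and they fell in replicates 1 to 4 in 2, 4, 4 and 4 sets. For Castaneus share, Dars stood at 50.3% in replicate 4 against 98.6% to 100% in the others. Nars had 76.6% in replicate 2 against 47.6% to 51.8%, and Sars2 32.5% in replicate 2 against 49.4% to 51.9%. Eprs had 52.4% in replicate 2 against 48.4% to 49.1%, Eif6 54.1% in replicate 1 against 49.1% to 49.7%, and Eif4g2 45.6% in replicate 3 against 48.3% to 48.4%.

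For RPKM, Eef1b2 had 276 in replicate 4 against 193 to 207, and Eif4e3 1.20 in replicate 4 against 1.80 to 1.92. Sars2 had 4.53 in replicate 4 against 4.16 to 4.22. Gars had 86.2 in replicate 2 against 77.5 to 78.8, and Iars 62.8 in replicate 1 against 73.9 to 74.5. In replicate 3, Dars had 9.30 against 11 to 11.3, Nars 56.1 against 62.7 to 63.8, and Eif4h 28.0 against 30.3 to 30.6.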

How the results depend on the processing

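All 209 fitted values of the 19 called members under 11 alternatives kept their direction, and 46 no longer passed. Eef1b2, Eif3c, Eif3d, Eif3l, Eif4a1 and Lars2 passed under all 11. Among these the highest adjusted p was 0.0466 for Eif3l, 0.0462 for Eif3d and 0.0313 for Lars2 (edgeR). Without the replicate block 8 members were called, 3 higher from Castaneus and 5 from C57BL/6, and 20.5% of all genes tested. Leaving out each replicate gave 10 to 19 called members, 6 to 8 higher from Castaneus and 4 to 11 from C57BL/6. DESeq2 called 17 higher from Castaneus, and TMM left 5 higher from C57BL/6. Of all genes tested, DESeq2 called 37.1% and edgeR with TMM factors 27.6%. The cause of these changes was not tested. The median of initiation factors was 24.9 RPKM without members under 1 RPKM, and the mean of log2 values gave 23 and 21.1 RPKM with pseudocounts of 1 and 0.1. For elongation factors the values were 267, 130.4 and 88.4 RPKM, since Eef1a2 at 0 counts among 6 genes, and for mitochondrial synthetases the log2 means gave 3.83 and 3.71. The log2 allele ratio of Dars, 4.75, was 6.08 with DESeq2, 2.69 without the block, and 3.62 to 6.68 with 1 replicate left out. Shares of members under 1000 reads had a median SD of 9.77 percentage points, with a range of 1.17 to 34.1. The cause of this spread was not tested.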
